A study of Homo sapiens with 16 samples.

Results

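The 36 genes described here encode aminoacyl-tRNA synthetases, 20 of them acting in the cytosol and 16 in mitochondria. They are the rows of the deposited expression table whose symbol was on a list of these enzymes, and a symbol ending in 2 marked a mitochondrial enzyme. All 36 were among the 17738 genes of the table and all passed the filter on low values, so they are 36 of the 16714 genes tested.

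RNA sequencing of polyadenylated RNA was carried out on cells of H1, an established line of human embryonic stem cells with WT genotype, in 16 libraries. The cells were maintained in E8 medium and spent 24 h in E7, which is E8 without TGFb, so every group, the controls included, lacked the TGFb of the maintenance medium unless it was added back. The 4 groups with 2-deoxyglucose (2DG) at 3 mM were E7+2DG, E7+TGFb+2DG, E7+ActivinA+2DG and E7+NODAL+2DG, and the 4 groups without it were E7+TGFb, E7+ActivinA, E7+NODAL and E7. TGFb was used at 1.74 ng/mL, and Activin A and NODAL at 100 ng/mL. Each group had 2 libraries, which the labels do not describe as separate cultures, so p-values measure the spread between these samples, which may be technical. In such bulk samples, fewer cells of a kind and less RNA per cell cannot be told apart.

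A synthetase attaches an amino acid to its tRNA, the step that feeds amino acids into protein synthesis. The cytosolic enzymes charge tRNAs for cytosolic ribosomes, while the mitochondrial enzymes, also made from nuclear genes and then imported, charge tRNAs for the few proteins that mitochondria translate themselves. GARS and KARS each give rise to a cytosolic and a mitochondrial form, EPRS carries glutamyl and prolyl activity on 1 chain, and mitochondria make glutaminyl-tRNA indirectly and have no counterpart of QARS. Several cytosolic genes are known targets of ATF4, a transcription factor whose own mRNA is translated better when stress kinases phosphorylate eIF2alpha. 2DG is a glucose analog that cells phosphorylate but cannot carry through glycolysis, and it also interferes with N-linked glycosylation. The 3 added proteins belong to the TGFb superfamily and act on SMAD2 and SMAD3 through cell surface receptors.

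Recovered reads ranged from 14600479 to 17630329 per library. All 10 stem cell markers were in the table, with summed normalised reads of 126575 to 154033 with 2DG, against 136739 to 171090 without. None of 4 blood markers was in the table, and 4 of 8 stromal markers (COL3A1, DCN, LUM and POSTN) were not. Every gene in the table had at least 1 read in each library, so a marker not in it may still have had reads in some libraries. Stromal markers summed to 2765 to 4098 with 2DG, against 3884 to 5244 without, and neural markers to 148 to 320 with 2DG, against 108 to 178 without. For 2 endothelial markers of 3 the sums were 1603 to 2707 with 2DG and 917 to 1973 without; for 3 trophoblast markers of 4 they were 60.2 to 156 with 2DG and 57.2 to 122 without, with CDH5 and CGA not in the table. For 2 hepatocyte and endoderm markers of 4, with ALB and SOX17 not in the table, they were 7.33 to 33.2 with 2DG and 5.65 to 18.2 without. The part of these cell type markers in the results was not tested. As a sign of RNA quality, 7 histone genes of 10 listed summed to 216 to 333 with 2DG, against 241 to 486 without, and of the 5 tested 1 fell, with a median log2 fold change of -0.39. The 2 libraries of E7+ActivinA gave a chi-square per degree of freedom of 53.3, where counting error alone gives about 1, those of E7+ActivinA+2DG gave 14.7 and those of E7 gave 10.05, while the other groups lay between 1.58 and 5.27.

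With 2DG, most cytosolic synthetases rose, while few mitochondrial ones did. The comparison asked what 2DG did to each gene on average over the 4 media, with 8 libraries on each side. Of the 20 cytosolic genes, 12 rose, 4 fell and 4 were not called, with a median log2 fold change of 0.31. Of the 16 mitochondrial genes, 1 rose, 5 fell and 10 were not called, with a median of -0.05, and the median over all genes tested was -0.0006. Calls were made at an adjusted p under 0.05, a threshold passed by 38.6% of all genes tested in this comparison, 19.2% higher and 19.4% lower. The 22 members called out of 36 are therefore to be read against a background in which more than 1 gene in 3 was called. Among the cytosolic genes 60% were called higher and among the mitochondrial genes 6.25%, each against the background of 19.2% higher. Called lower were 20% of the cytosolic and 31.25% of the mitochondrial genes, against the background of 19.4% lower. Not called were 62.5% of the mitochondrial genes, against 10259 of all 16714 genes, so their share called was close to the background. Across genes this average response followed transcript length weakly (Spearman rho 0.20, a description over genes that share the same libraries). For 2DG rho was 0.34 in E7, -0.01 in TGFb medium, 0.35 in Activin A medium and -0.13 in NODAL medium. Among the 14 contrasts described below and here it ran between -0.43 (TGFb change of the 2DG response) and 0.46 (TGFb in E7), with -0.42 for the NODAL change. Replicate 2 minus replicate 1 also followed length, with rho -0.39 in E7 and 0.53 in E7+ActivinA. With the length trend removed from each library, 24 members were called for the average, 14 cytosolic higher and 3 lower, and 2 mitochondrial higher and 5 lower.

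**Figure D1:**
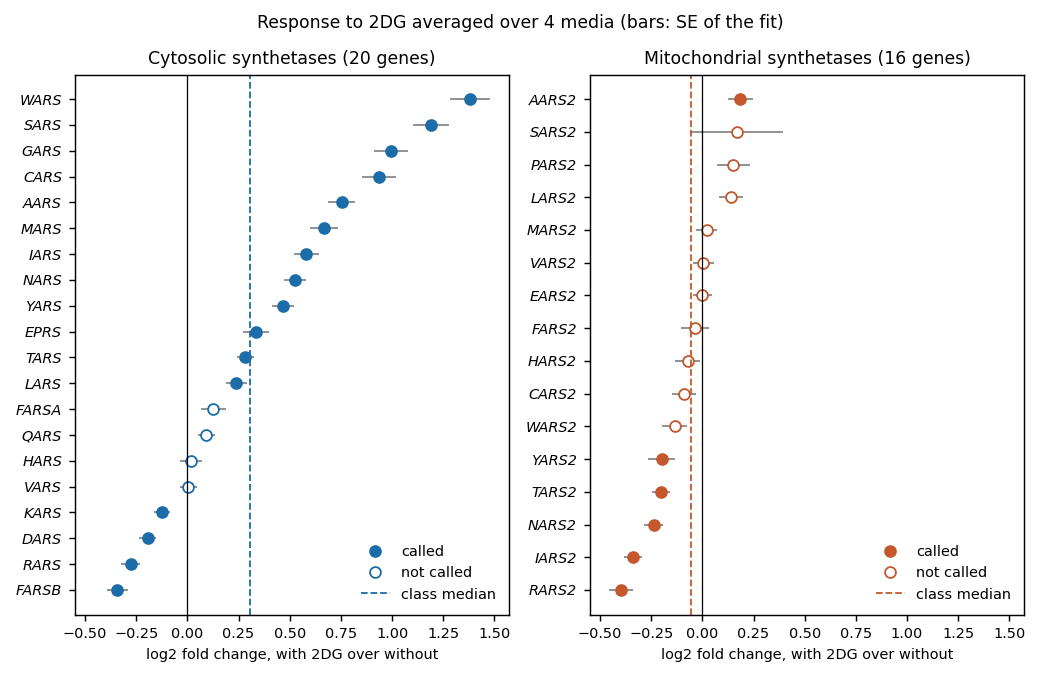
Log2 fold change between libraries with 2DG and without, averaged over the 4 media, for the 20 cytosolic genes on the left and the 16 mitochondrial genes on the right; bars are the SE of the fit, filled points were called and dashed lines are class medians. The cytosolic genes spread between -0.34 and 1.38, and the mitochondrial genes between -0.40 and 0.18.

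Tryptophanyl-tRNA synthetase showed the largest response of the 36. WARS had 2517 to 5837 normalised reads with 2DG (median 5071), against 1564 to 1986 without (median 1763). The ranges did not overlap, and the lowest value with 2DG came from replicate 1 of E7+ActivinA+2DG. How many of all genes also lacked overlap was not counted, here and below. The log2 fold change was 1.38 (SE 0.097, adjusted p 5.8e-07), which is 2.60-fold. In GENCODE 29 (GRCh38) WARS spans chr14:100333788-100376805 on the minus strand, and SARS spans chr1:109213918-109238169 on the plus strand. SARS, the seryl-tRNA synthetase, had 3875 to 7818 normalised reads with 2DG (median 6768), against 2309.8 to 3266 without (median 2820.0), again without overlap. Its log2 fold change was 1.19 (SE 0.086, adjusted p 7.6e-07), or 2.28-fold.

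Glycyl-tRNA synthetase, GARS, was among the most abundant members and had 7161 to 12071 normalised reads with 2DG (median 10406), against 4026 to 5482 without (median 4855). All 8 libraries with 2DG lay above all 8 without it, and the log2 fold change was 0.99 (SE 0.081, adjusted p 1.8e-06). CARS, which charges cysteine tRNA, had 1778 to 3142 normalised reads with 2DG (median 2918), against 1187 to 1636 without (median 1421), also without overlap. Its log2 fold change was 0.94 (SE 0.084, adjusted p 3.7e-06). AARS, the alanyl enzyme, had 5726 to 9574 normalised reads with 2DG (median 8742), against 4352 to 5370.2 without (median 4943). Its groups did not overlap and differed by a log2 change of 0.75 (SE 0.068, adjusted p 3.8e-06). MARS, the methionyl enzyme, had 4693 to 7878 normalised reads with 2DG (median 7182), against 3705 to 4844 without (median 4207). These ranges overlapped in 1 library with 2DG, replicate 1 of E7+ActivinA+2DG at 4693 normalised reads, and the log2 fold change was 0.67 (SE 0.071, adjusted p 1.4e-05).

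The other cytosolic genes that rose did so by less than MARS. IARS had 10847 to 16265 normalised reads with 2DG (median 14676), against 7509 to 10800.5 without (median 9256), a log2 change of 0.58 (adjusted p 1.3e-05), and YARS had 4117 to 5732 normalised reads with 2DG (median 5257), against 3328 to 4017 without (median 3756), a log2 change of 0.47 (adjusted p 2.7e-05), both without overlap. NARS rose by 0.53 (adjusted p 1.0e-05), EPRS by 0.33 (adjusted p 0.0011), TARS by 0.28 (adjusted p 0.00018) and LARS by 0.24 (adjusted p 0.0025) on the log2 scale, with overlap between the libraries with and without 2DG in each. FARSA, QARS, HARS and VARS were not called, with log2 fold changes of 0.13, 0.09, 0.02 and 0.004 and adjusted p-values of 0.12, 0.10, 0.83 and 0.94.

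**Figure D2:**
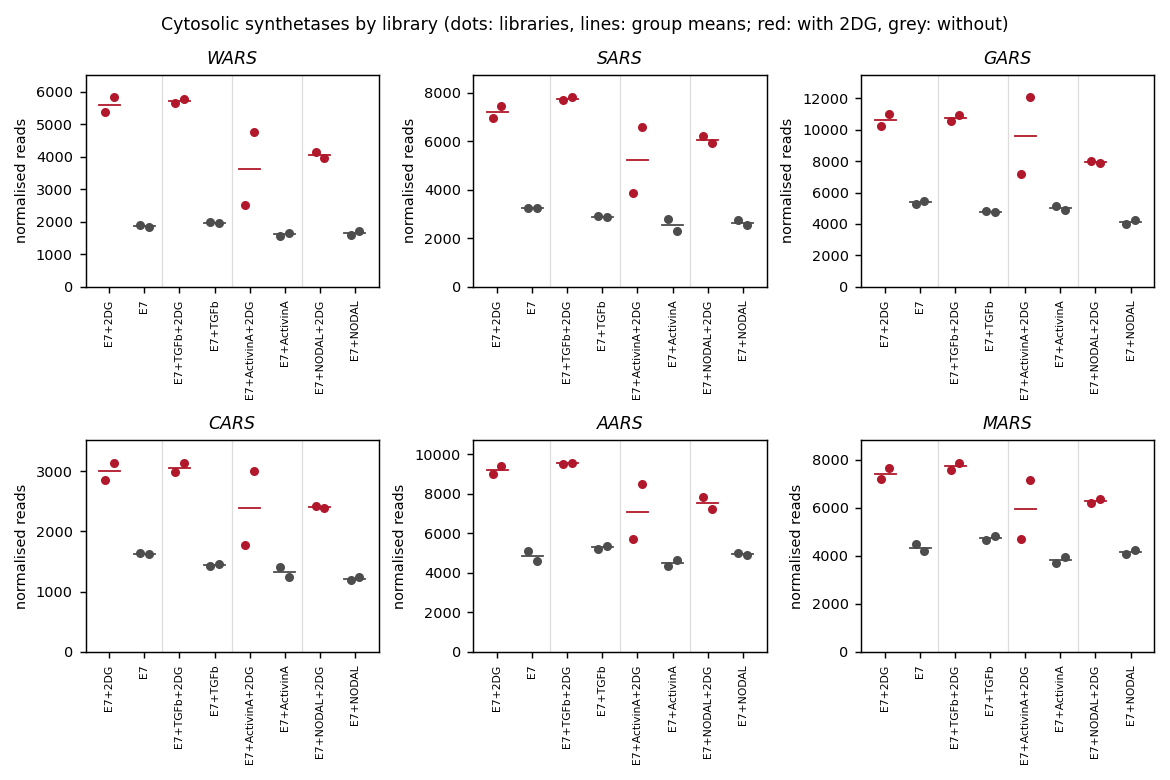
Normalised reads (y axis, from 0) of the 6 cytosolic genes with the largest average response, in each library of the 8 groups; dots are libraries, lines are group means, red is with 2DG and grey without. In each medium both 2DG libraries lie above both libraries without 2DG, and in E7+ActivinA+2DG the 2 dots are far apart, for WARS at 2517 and 4763.

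Replicate 1 of E7+ActivinA+2DG stood apart from its partner in these genes. All 12 cytosolic genes called higher had a lower value in it than in replicate 2, and so did all 30 genes of a list of ATF4-linked amino acid response genes. How many of all genes, or of all genes called higher with 2DG, were also lower in it was not counted. WARS had 2517 and 4763 normalised reads in the 2 libraries of E7+ActivinA+2DG, against 1564 and 1669 in E7+ActivinA. GARS had 7161 and 12071 in E7+ActivinA+2DG, against 5129.7 and 4907 in E7+ActivinA. In both genes the lower 2DG library still exceeded both libraries without 2DG. Without all 4 Activin A libraries, an alternative chosen after seeing the data, the average response called 14 cytosolic genes higher and 4 lower, and 2 mitochondrial genes higher and 6 lower, with medians of 0.31 and -0.02. Of all 16512 genes tested then, 3883 were called higher and 4000 lower.

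Not all cytosolic members moved up, and the share called lower, 20%, was close to the 19.4% of all genes. FARSB, the beta subunit of phenylalanyl-tRNA synthetase, fell with 2DG, while FARSA, the alpha subunit of the same enzyme, was not called. FARSB had 1416 to 1723 normalised reads with 2DG (median 1531), against 1628 to 2321 without (median 2075). Its log2 fold change was -0.34 (SE 0.051, adjusted p 0.00019). RARS, the arginyl enzyme, had 2136 to 2635 normalised reads with 2DG (median 2290.0), against 2170.3 to 3550.2 without (median 2767). The 2 ranges overlapped through the libraries with NODAL, and the log2 fold change was -0.28 (SE 0.045, adjusted p 0.00037). DARS, the aspartyl enzyme, had 2021 to 2272 normalised reads with 2DG (median 2131), against 2192 to 3058 without (median 2346), with a log2 change of -0.19 (SE 0.042, adjusted p 0.0028). KARS, the lysyl enzyme, had 4448 to 4931 normalised reads with 2DG (median 4629), against 4310.4 to 5941 without (median 5109.9). Its log2 fold change of -0.12 (SE 0.039, adjusted p 0.021) was the smallest among the cytosolic calls, and the call was lost without any 1 of 5 libraries (replicate 1 of E7+2DG, replicate 2 of E7+TGFb, replicate 1 of E7+TGFb+2DG, replicate 1 of E7+NODAL and replicate 2 of E7+NODAL+2DG), with adjusted p up to 0.056, and with the length trend removed (adjusted p 0.062).

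RARS, DARS and KARS belong with EPRS, IARS, LARS, MARS and QARS to the multi-synthetase complex, an assembly of cytosolic synthetases held together by the scaffold proteins AIMP1, AIMP2 and EEF1E1. Of the 8 synthetases of the complex, 4 rose, 3 fell and 1 was not called, with a median log2 fold change of 0.17. Of the 12 cytosolic genes outside it, 8 rose, 1 fell and 3 were not called, with a median of 0.50. Among the scaffolds, AIMP1 fell, with a log2 change of -0.20 (adjusted p 0.0096). AIMP2 and EEF1E1 were not called, with log2 fold changes of -0.0093 (adjusted p 0.94) and -0.20 (adjusted p 0.080).

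Among the mitochondrial enzymes, whose share called was close to the background, the called changes were mostly downward and small. RARS2 (chr6:87514378-87590003, minus strand), which charges mitochondrial arginine tRNA, had 575 to 809 normalised reads with 2DG (median 636), against 776 to 954 without (median 850.0). Its log2 fold change of -0.40 (SE 0.058, adjusted p 0.00016) was the largest fall of the 36. IARS2 (chr1:220094102-220148041, plus strand), the isoleucyl enzyme, had 2063 to 2366 normalised reads with 2DG (median 2224), against 2536 to 3226 without (median 2763). It was the only mitochondrial member whose libraries with 2DG all lay below those without, and its log2 fold change was -0.34 (SE 0.044, adjusted p 7.1e-05). The share of all genes without overlap was not counted. NARS2, the asparaginyl enzyme, had 701 to 792 normalised reads with 2DG (median 735), against 687 to 1085 without (median 869), and TARS2, the threonyl enzyme, had 491 to 595 normalised reads with 2DG (median 556), against 561 to 722 without (median 614). Their log2 fold changes were -0.24 (adjusted p 0.0016) and -0.20 (adjusted p 0.0027). YARS2, the tyrosyl enzyme, had 628 to 735 normalised reads with 2DG (median 655), against 678 to 906 without (median 743) and a log2 change of -0.20 (adjusted p 0.028), a call lost without any 1 of 9 libraries, with adjusted p up to 0.075.

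AARS2 was the only mitochondrial gene called higher. It had 418 to 495 normalised reads with 2DG (median 464), against 297 to 483 without (median 423). The libraries without 2DG were lowest in E7, with 329 and 297 normalised reads in its 2 libraries, and lay between 396 and 483 in the other media. The log2 fold change was 0.18 (SE 0.060, adjusted p 0.026), and the call was lost without any 1 of 8 libraries, with adjusted p up to 0.075. The 10 mitochondrial genes not called had log2 fold changes between -0.13 (WARS2) and 0.17 (SARS2). SARS2 is uncertain: it held only 11.2 to 48.1 normalised reads, and 57.0% of its exon bases are shared with MRPS12 and AC011455.2.

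**Figure D3:**
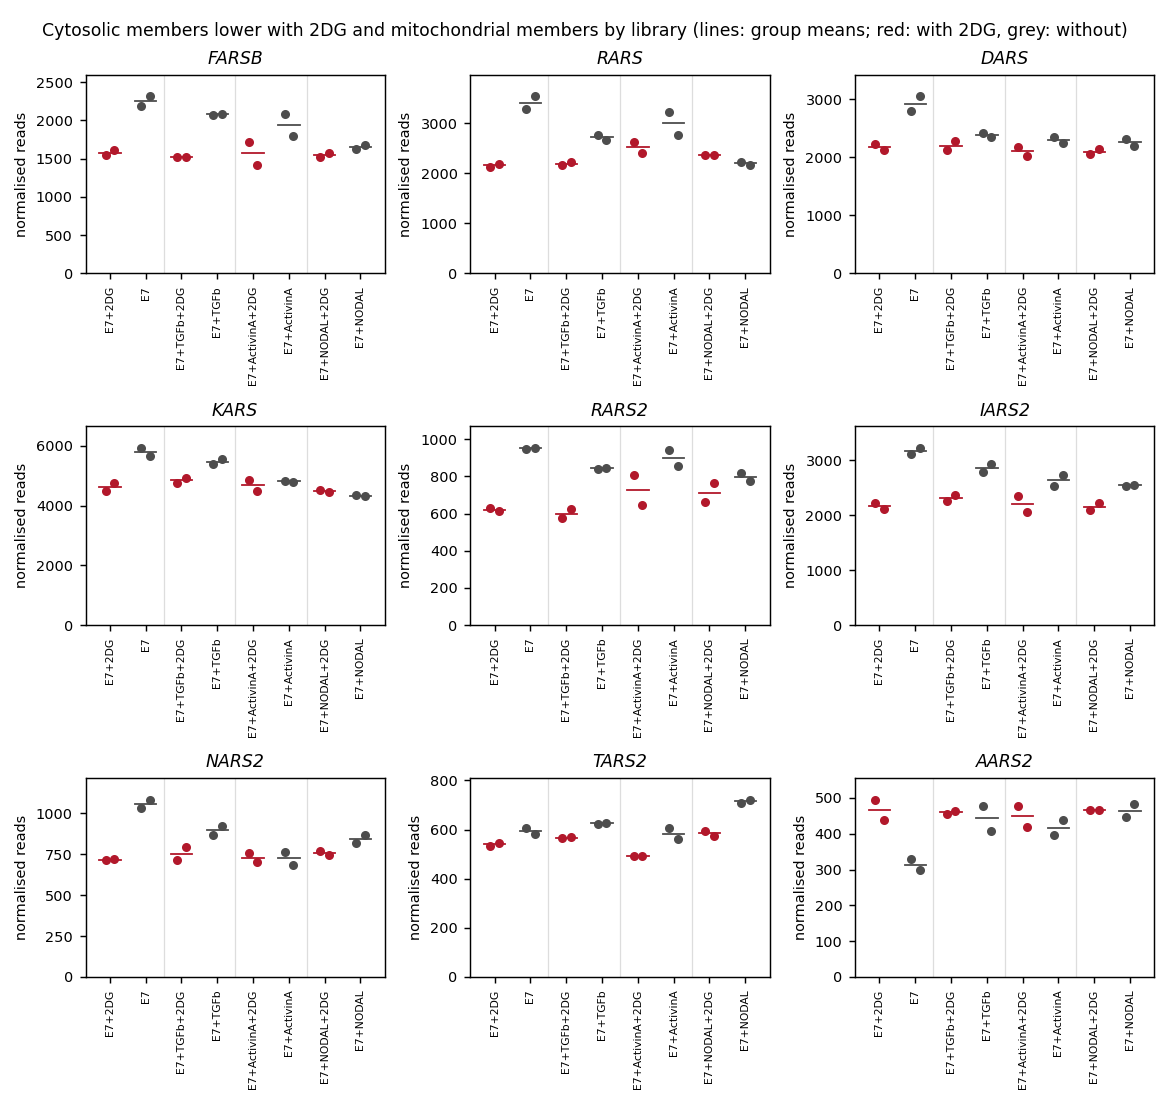
Normalised reads (y axis, from 0) in each library for the 4 cytosolic genes that fell on average with 2DG, the 4 mitochondrial genes with the largest average change and AARS2; dots are libraries, lines are group means, red is with 2DG and grey without. The gap in RARS and FARSB is wide in E7 and narrow or absent in E7+NODAL, and IARS2 with 2DG lies below IARS2 without it in each medium.

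Set against its mitochondrial partner for the same amino acid, the cytosolic gene had an average log2 fold change higher by a median of 0.57 over 15 pairs, with EPRS paired with both EARS2 and PARS2. The difference was largest for WARS, at 1.51. VARS and VARS2 tied, at 0.004 each, and the pairs of HARS, LARS and RARS differed by only 0.09, 0.10 and 0.12. The phenylalanyl enzymes, FARSA and FARSB in the cytosol and FARS2 in mitochondria, were not among the pairs. Median normalised reads with 2DG and without were 1531 and 2075 for FARSB, 1415 and 1260 for FARSA, and 233 and 245 for FARS2. FARSB thus fell more than FARS2, against the direction of the pairs, while FARSA lay on their side. This difference between enzymes has no test of its own here. Summed over each class, cytosolic synthetases held 0.569 to 0.781% of all reads with 2DG, against 0.470 to 0.550% without, and these ranges did not overlap. Mitochondrial synthetases held 0.0645 to 0.0713% with 2DG, against 0.0697 to 0.0765% without, which overlapped. Per kilobase of merged exon and without 2DG, the cytosolic genes had a median level of 1332 normalised reads per kilobase, between 273 for HARS and 2261 for NARS. The mitochondrial genes had a median level of 206, between 11.4 for SARS2 and 776 for IARS2.

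**Figure D4:**
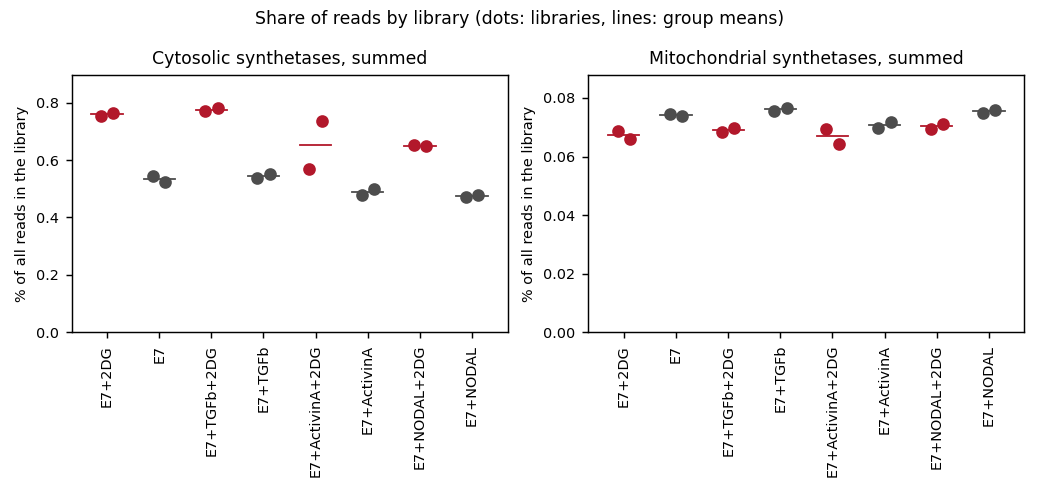
Percentage of all reads in a library held by the 20 cytosolic genes together (left) and by the 16 mitochondrial genes together (right), each y axis from 0; dots are libraries and lines are group means. The cytosolic share lies at 0.569% or above in the 8 libraries with 2DG and at 0.550% or below in the 8 without.

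Several cytosolic members share a short element next to their start sites. ATF4 pairs with C/EBP proteins on a composite element that can be written TGATGNAA, and this text was looked for on both strands from 250 bases before to 50 bases after each annotated start, in the RefSeq promoter windows of GRCh38.p14. Windows were available for 30 of the 36 members, 16 cytosolic and 14 mitochondrial, and not for DARS, LARS, VARS, YARS, AARS2 and VARS2. The text was found in 7 of the 16 cytosolic members and 1 of the 14 mitochondrial members. Counted in the same way by gene, it was found in 312 of the 11120 tested genes with a window (2.81%). Counted by window, it was found in 1270 of all 35116 (3.62%). The matches with 10 bases on each side, read on the strand of the gene with the match in capitals, show that 6 of the 7 cytosolic genes carry the same 8 bases, TTGCATCA or its reverse complement TGATGCAA, and that the genes otherwise differ around it:

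AARS (chr16:70289676-70289703, minus strand): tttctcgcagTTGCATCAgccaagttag

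CARS (chr11:3057408-3057435, minus strand): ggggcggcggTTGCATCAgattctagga

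GARS (chr7:30594835-30594862, plus strand): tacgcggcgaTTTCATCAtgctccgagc

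IARS (chr9:92293693-92293720, minus strand): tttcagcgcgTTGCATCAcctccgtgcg

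MARS (chr12:57488054-57488081, plus strand): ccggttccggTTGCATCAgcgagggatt

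NARS (chr18:57621805-57621832, minus strand): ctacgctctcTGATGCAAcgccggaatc

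TARS (chr5:33440957-33440984, plus strand): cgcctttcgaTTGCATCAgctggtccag

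YARS2 (chr12:32756077-32756104, minus strand): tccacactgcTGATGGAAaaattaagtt

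The first capital lies at position -187 from the start site in AARS, -33 in GARS, -13 in IARS, -4 in MARS, -2 in CARS, 3 in TARS and 15 in NARS, and at -197 in YARS2. All 7 cytosolic genes with the text were called higher with 2DG, and YARS2 was called lower. Of the 9 cytosolic genes with a window but without the text, 3 were called higher (EPRS, SARS and WARS), 3 lower (FARSB, KARS and RARS), and 3 were not called (FARSA, HARS and QARS). The absence of these letters from a window says nothing about sites elsewhere or in another form. Over the 11120 tested genes with a window, 35.3% of the 312 with the text were called higher with 2DG, against 20.4% of those without it, and 18.6% of those with it were called lower, against 21.3% of those without. These shares are a description of text in annotated windows and not of binding.

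The start of AARS shows the wider setting of the element that lies farthest upstream among the cytosolic genes. The 213 bases of its window that lie before the GENCODE 29 start of AARS, at chr16:70289544-70289756 on the minus strand, hold the match in capitals once:

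AARS upstream: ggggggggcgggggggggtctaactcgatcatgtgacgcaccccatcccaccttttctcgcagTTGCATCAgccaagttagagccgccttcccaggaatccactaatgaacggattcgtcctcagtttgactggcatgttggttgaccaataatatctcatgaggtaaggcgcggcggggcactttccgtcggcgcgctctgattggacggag

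Genes linked to ATF4 and amino acid supply rose with 2DG without exception in the list used. Of the 31 genes listed, 30 were in the table and all 30 were called higher, with a median log2 fold change of 1.40. Over all genes 19.2% were called higher. The list was drawn up with earlier results of these data known, so its count is a description. SLC1A4, a neutral amino acid transporter, rose by 3.38 (adjusted p 9.1e-08), and ATF5, a transcription factor related to ATF4, by 3.33 (adjusted p 2.8e-08) on the log2 scale. DDIT3, a stress transcription factor, rose by 3.26 (adjusted p 4.0e-07), while ATF4 mRNA itself rose by 0.31 (adjusted p 0.0014). None of the 12 cytosolic synthetases that rose exceeded this median, and WARS came nearest to it.

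Genes that handle tRNA or work beside the synthetases moved less uniformly. Over all genes 38.6% were called here, 19.2% higher and 19.4% lower, and the counts of these short lists are to be read against that. Median log2 fold changes were -0.04 for the tRNA list and -0.03 for the mitochondrial partners. They were 0.14 for the elongation factors and 0.20 for the eIF2alpha kinases with GCN1. XPOT, the nuclear export factor for tRNA, rose by a log2 change of 0.73 (adjusted p 7.5e-06), and PSTK, a kinase of the selenocysteine tRNA pathway, by 0.28 (adjusted p 0.021). DTD2, a deacylase that clears mischarged tRNA, fell with a log2 change of -0.39 (adjusted p 0.00091), and TRNT1, which adds the CCA end to tRNAs, with -0.18 (adjusted p 0.023); the other 5 of 9 genes tested in this list were not called. Among 13 mitochondrial charging partners and translation factors, QRSL1, a subunit of the amidotransferase that makes mitochondrial glutaminyl-tRNA, rose by 0.41 (adjusted p 0.00013), while MTIF3, MTFMT and GFM2 fell, with log2 fold changes of -0.36 (adjusted p 0.0020), -0.31 (adjusted p 0.020) and -0.28 (adjusted p 0.00044). The other 9 were not called. Of 5 cytosolic elongation factors tested, EEF2 rose by 0.56 (adjusted p 4.9e-06) and EEF1D by 0.30 (adjusted p 0.00015) on the log2 scale. Among 5 genes for eIF2alpha kinases and GCN1, the activator of GCN2, the gene for PERK (EIF2AK3) rose by 0.38 (adjusted p 0.00045) and the gene for GCN2 (EIF2AK4) fell, with a log2 change of -0.31 (adjusted p 0.0024).

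The counting of some members could take in reads from neighbours or lose reads shared with them. The strand setting is not given in the sources used here. For VARS2 with GTF2H4 and HARS2 with ZMAT2, which lie on the same strand, no strand setting would separate the shared bases. Exon bases shared with other genes in GENCODE 29 made up 22.0% of VARS2, 15.8% of HARS2, 13.3% of MARS, 10.6% of WARS, 8.38% of HARS and 7.60% of DARS. The MARS overlap includes DDIT3, on the other strand, which averaged 298 normalised reads with 2DG and 29.3 without. Its part in the MARS values was not tested. Values of these members are uncertain to that extent.

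Medium by medium, WARS, SARS, GARS, CARS, AARS and IARS were called higher in all 4 media, and MARS, NARS and YARS in 3 of them. In E7 alone, 21 members were called (background 29.4%, with 14.6% higher and 14.8% lower), of which 10 cytosolic rose and 4 fell, and 2 mitochondrial rose and 5 fell. In TGFb medium 14 were called (background 9.84%, with 5.47% higher and 4.37% lower), of which 10 cytosolic rose and 2 fell, and 2 mitochondrial fell. In Activin A medium 6 were called (background 1.7%, with 1.48% higher and 0.221% lower), all of them those 6 cytosolic genes. Fitted on only the Activin A libraries none of the 6 was called, with adjusted p between 0.70 for WARS and 0.88 for AARS, CARS and IARS. The call was lost under 18 alternatives for IARS, 13 for AARS, 12 for CARS, 2 for SARS and 1 each for GARS and WARS. In NODAL medium 10 were called (background 5.88%, with 3.11% higher and 2.76% lower), all cytosolic and higher.

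WARS illustrates the response in each medium. It had 5380.1 and 5837 normalised reads in E7+2DG, against 1912 and 1826 in E7, and 5669.9 and 5795 in E7+TGFb+2DG, against 1986 and 1955 in E7+TGFb. With NODAL it had 4161 and 3976 in E7+NODAL+2DG, against 1607 and 1701 in E7+NODAL. The log2 fold changes were 1.58 (adjusted p 0.00030) in E7, 1.54 (adjusted p 0.00047) in TGFb medium, 1.10 (adjusted p 0.014) in Activin A medium and 1.30 (adjusted p 0.0020) in NODAL medium. The Activin A value of WARS became 1.56 without replicate 1 of E7+ActivinA+2DG and 0.64 without replicate 2 (adjusted p 0.013). For SARS, the log2 fold change ran between 0.99 (adjusted p 0.013) in Activin A medium and 1.43 (adjusted p 0.00038) in TGFb medium. The Activin A value of SARS became 1.38 without replicate 1 of E7+ActivinA+2DG and 0.61 without replicate 2, where the call was lost (adjusted p 0.0502). Neither WARS nor SARS was called for any of the 3 ligands in the test of whether the ligand changed the response.

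The median log2 fold change of the cytosolic genes was 0.33 in E7, 0.25 in TGFb medium, 0.34 in Activin A medium and 0.38 in NODAL medium. The mitochondrial medians were -0.14, -0.08, -0.02 and 0.01 in the same order, and the last 2 changed sign when each library was scaled to the same total. In E7, IARS2, NARS2, RARS2, WARS2 and YARS2 fell and AARS2 and LARS2 rose, and in TGFb medium IARS2 and RARS2 fell. The E7 call was lost under 17 alternatives for LARS2, 14 for YARS2, 8 for WARS2 and 1 for AARS2, and under none of those run for IARS2, NARS2 and RARS2. In TGFb medium it was lost under 14 for IARS2 and 4 for RARS2. Counts in single media rested on few libraries. Leaving out 1 library gave 14 to 24 members in E7 and 5 to 16 in TGFb medium, where each of the 4 libraries compared brought the count to 5 or 6. It gave 2 to 20 in Activin A medium, with 15 without replicate 1 of E7+ActivinA+2DG, 2 without its replicate 2, 20 without replicate 2 of E7+ActivinA, and 3 without any 1 library of E7+2DG, E7+TGFb+2DG, E7+NODAL+2DG, E7+TGFb or E7+NODAL. It gave 3 to 17 in NODAL medium, with 3 and 6 without replicate 1 and 2 of E7+NODAL+2DG, 5 and 6 without replicate 1 and 2 of E7+NODAL, and 17 without either library of E7+ActivinA.

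**Figure D5:**
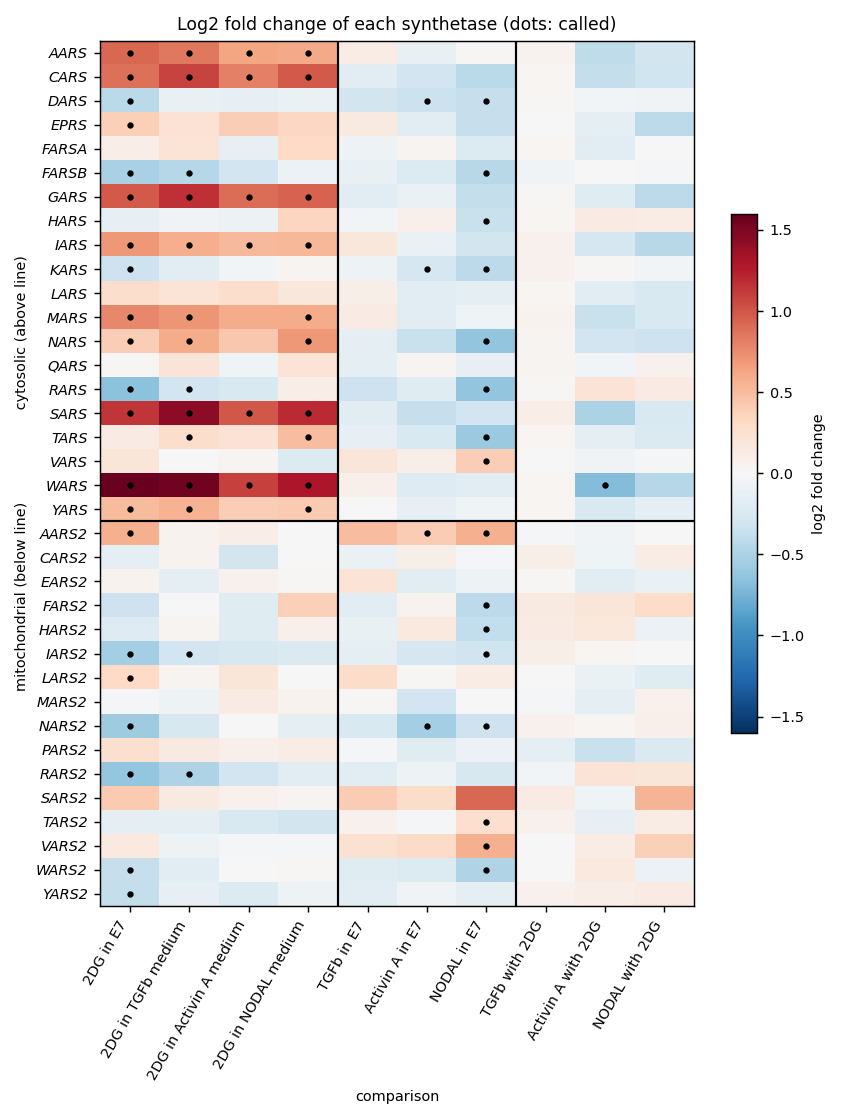
Log2 fold change (colour) of each of the 36 genes (rows, cytosolic above the line and mitochondrial below it) in 10 comparisons (columns): 2DG in the 4 media, then the 3 ligands in E7, then the 3 ligands with 2DG; dots mark called genes. The dots of the 2DG columns sit mostly in the cytosolic rows from AARS to YARS with increases, and the column for NODAL in E7 holds 16 dots, 12 of them on decreases.

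In E7 without 2DG, the ligands were compared with the plain medium, all 3 against the same E7 libraries. For TGFb, limma called no member and no gene at all (background 0%), although 3771 genes and 8 members had an unadjusted p under 0.05. There edgeR called 0 members, and DESeq2 called 3, beside 204 genes higher and 91 lower of 16714. The member with the smallest unadjusted p for TGFb was AARS2, with 477 and 408 normalised reads in E7+TGFb, against 329 and 297 in E7, a log2 change of 0.49 (adjusted p 0.15). Without the 4 Activin A libraries 11 members were called for TGFb, beside 2311 genes higher and 2093 lower of the 16512 tested.

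Activin A called 4 members (background 10%, with 5.28% higher and 4.74% lower): DARS, KARS and NARS2 fell and AARS2 rose. NARS2 had 762 and 687 normalised reads in E7+ActivinA, against 1035 and 1085 in E7, a log2 change of -0.55 (SE 0.096, adjusted p 0.0023). The groups did not overlap in NARS2. On the log2 scale the change was -0.35 (adjusted p 0.019) for DARS, -0.27 (adjusted p 0.042) for KARS and 0.41 (adjusted p 0.045) for AARS2. The share of members called, 4 of 36, was close to the background. Leaving out 1 library gave 9 members without replicate 1 of E7+ActivinA or either library of E7+ActivinA+2DG, 1 without replicate 2 of E7, and 2 without replicate 1 of E7 or any 1 library of the 5 groups without Activin A other than E7. The calls of KARS and AARS2 were lost under 16 and 15 alternatives, that of DARS under 2 and that of NARS2 under 1.

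With NODAL in E7, the members called mostly fell. The comparison called 16 members (background 21.5%, with 10.6% higher and 10.9% lower): 7 cytosolic fell and 1 rose, and 5 mitochondrial fell and 3 rose. The cytosolic median was -0.33, the mitochondrial median was -0.09, which became 0.04 when each library was scaled to the same total, and the median over all genes was 0.01. Beside these changes, 5 of 10 stem cell markers fell and none rose, with a median log2 fold change of -0.24, among them L1TD1 (-0.61) and ZFP42 (-0.43). Of 5 histone genes tested as a sign of RNA quality 1 fell, with a median of -0.47. Reads of the mitochondrial genome made up 6.62 and 6.69% of each E7+NODAL library, against 5.66 and 5.53% in E7. The part of these in the NODAL results was not tested. RARS had 2231 and 2170.3 normalised reads in E7+NODAL, against 3283 and 3550.2 in E7, and its log2 fold change was -0.63 (SE 0.090, adjusted p 0.00088). NARS had 5305 and 5558 in E7+NODAL, against 8319.9 and 8507 in E7, and a log2 change of -0.63 (SE 0.11, adjusted p 0.0020). TARS had 5596 and 5624 in E7+NODAL, against 8233 and 8747 in E7, and a log2 change of -0.60 (SE 0.083, adjusted p 0.00081). The NODAL libraries lay below the E7 libraries in all 3 genes. NARS and TARS, which charge asparagine and threonine tRNA, fell with NODAL in E7 and rose with 2DG on average.

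Among the other cytosolic genes, FARSB, KARS, DARS and HARS, the histidyl enzyme, fell, with log2 changes of -0.45 (adjusted p 0.0085), -0.42 (adjusted p 0.0031), -0.37 (adjusted p 0.0086) and -0.35 (adjusted p 0.030) in that order. VARS, the valyl enzyme, was the only cytosolic gene that rose: it had 2976 and 3126 normalised reads in E7+NODAL, against 2375 and 2273 in E7, and a log2 change of 0.39 (SE 0.081, adjusted p 0.0055). VARS2, its mitochondrial partner, had 659 and 670.0 in E7+NODAL, against 456 and 441 in E7, and a log2 change of 0.57 (SE 0.10, adjusted p 0.0026). Both valyl enzymes were higher in all NODAL libraries than in E7, and VARS2 shares exon bases with GTF2H4. AARS2 rose by 0.57 (adjusted p 0.0062) and TARS2 by 0.27 (adjusted p 0.045), while WARS2, FARS2, HARS2, NARS2 and IARS2 fell, with log2 fold changes of -0.48 (adjusted p 0.015), -0.42 (adjusted p 0.046), -0.39 (adjusted p 0.039), -0.33 (adjusted p 0.027) and -0.32 (adjusted p 0.022). All 3 scaffolds of the multi-synthetase complex fell as well, AIMP1 with a log2 change of -0.42 (adjusted p 0.017), AIMP2 with -0.56 (adjusted p 0.022) and EEF1E1 with -0.60 (adjusted p 0.024).

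The NODAL counts moved with scaling and with single libraries. Scaled to the same total, 10 members were called, 4 higher and 6 lower, against 4 higher and 12 lower as reported. The median log2 fold change of all genes was 0.13 with that scaling, against 0.01 as reported. Of all 16720 genes tested then, 2675 were called higher and 916 lower. Leaving out 1 library gave 5 to 21 members, with 5 without replicate 2 of E7 or replicate 2 of E7+NODAL and 9 without replicate 1 of E7+NODAL. KARS, NARS, RARS, TARS and VARS2 were called under each alternative run, while the calls of FARS2 and TARS2 were lost under 17 and 16 of them.

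HARS had 980.3 and 894 normalised reads in E7+NODAL, against 1224 and 1167 in E7, and HARS2 had 464 and 357 in E7+NODAL, against 524 and 545 in E7. Some of their exon bases overlap each other, so reads of one may be counted for the other. The HARS call was lost under 5 alternatives and the HARS2 call under 14.

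In the presence of 2DG, only 1 member was called for a ligand, all 3 ligands being compared with the same E7+2DG libraries. For TGFb, limma called no member and no gene (background 0%; 273 genes and 0 members had an unadjusted p under 0.05, and edgeR and DESeq2 called 0 members). For NODAL it called no member (background 0.634%, with 0.425% higher and 0.209% lower). There 2795 genes and 8 members had an unadjusted p under 0.05, and edgeR and DESeq2 called 0 members. Without the Activin A libraries 12 members were called for NODAL, beside 1198 genes higher and 1753 lower of the 16512 tested. Activin A called 1 member (background 7.52%, with 4.27% higher and 3.25% lower), WARS, with 2517 and 4763 normalised reads in E7+ActivinA+2DG, against 5380.1 and 5837 in E7+2DG. The log2 fold change there was -0.69 (SE 0.19, adjusted p 0.043), and -0.23 with adjusted p 0.25 without replicate 1 of E7+ActivinA+2DG. The call was lost under 15 alternatives, including the removal of any 1 library of the groups other than E7+ActivinA+2DG and E7+ActivinA, and 9 members were called without replicate 2 of E7+ActivinA+2DG and 4 without either library of E7+ActivinA.

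Whether a ligand changed the response to 2DG was tested as the log2 response to 2DG in the medium with the ligand minus that in plain E7. No member's response was called for TGFb (background 0%; 2023 genes and 4 members had an unadjusted p under 0.05, and edgeR and DESeq2 called 0 members), and none was called for Activin A (background 0.0419%; 6 members had an unadjusted p under 0.05, and edgeR and DESeq2 called 0). For NODAL the response of 1 member was called (background 1.87%, with 0.987% higher and 0.885% lower), RARS. It had 2136 and 2189 normalised reads in E7+2DG, against 3283 and 3550.2 in E7, and 2365 and 2363 in E7+NODAL+2DG, against 2231 and 2170.3 in E7+NODAL. With 2DG it was lower in E7 and slightly above its control in NODAL medium, and the difference in log2 response was 0.76 (SE 0.13, adjusted p 0.038). The call was lost with the replicate number as a block in the fit (adjusted p 0.058) and without any 1 of 11 libraries, among them both replicates of E7+2DG, E7+NODAL and E7+NODAL+2DG, with adjusted p up to 0.20. Without either library of E7+ActivinA, 12 members were called, and without replicate 1 or 2 of E7+ActivinA+2DG, 2 and 3.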

How the data were processed

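The authors deposited a signal for each gene, its reads divided by a size factor of the library. Named in the submitters' processing notes are Trimmomatic 0.36, STAR, featureCounts 1.5.3, DESeq2 1.26.0 and hg38; their roles, the gene filter, the strand setting and the release of the annotation are not given in the sources used here. All values (100%) were whole multiples of the value of 1 read in their library within a tolerance of 1e-06, which gave back whole reads. Size factors computed from those reads by median of ratios equalled the deposited divisors.

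The filter on low values asked for 10 or more in 2 or more libraries and left 16714 of 17738 genes. Limma 3.58.1 (R 4.3.3, with an intensity trend) was fitted to log2 of the value plus a pseudocount of 1, with 8 group means over all 16 libraries, which then share 1 estimate of the spread. From this fit 14 contrasts were taken. The two-sided p-values were adjusted by Benjamini-Hochberg over all genes within a contrast, and fold changes are on the log2(value + 1) scale, which understates changes of low genes. The fit was also run on simulated data with known changes in E7+2DG. Those data had the same dispersion in all groups, so the run does not bear on groups of unequal spread, as seen here.

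Members were matched by symbol; the table uses older symbols, such as AARS for the gene now called AARS1. Positions and merged exon lengths came from GENCODE 29, in which 17317 of 17738 symbols (97.6%) matched 1 gene, 372 were not found and 49 matched several. Promoter windows are from RefSeq (GRCh38.p14). Lists of genes are described by their counts, and most by their median. The shares called over all genes are given with the members in each comparison. The members, the lists and the alternatives were chosen with earlier results of these data known. Genes given with their values by library or by range were the 6 cytosolic and 4 mitochondrial members with the largest average response to 2DG, called cytosolic members that fell and called mitochondrial members that rose; other members are described by calls, ranges and counts. The ranges of IARS, YARS, YARS2 and SARS2, and the medians of FARSA and FARS2, lie outside this rule. So do the values by library of NARS, TARS, VARS, VARS2, HARS and HARS2 with NODAL. All of these were chosen after their values were seen.

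Alternatives were no filter or a mean of at least 50, a pseudocount of 0.5 or 8, TMM factors, scaling to the same total, a fit on only the libraries of the contrast, a block for the replicate number, edgeR 4.0.16 (quasi-likelihood) and DESeq2 1.42.0 on the recovered reads, removal of the length trend of each library, no Activin A libraries, and leaving out each library in turn. A group reduced to 1 library in this way takes its spread from the others, which is an assumption.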

Additional observations from a re-analysis of the deposited data

Results flagged for a closer look

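The response of RARS to 2DG differed between NODAL medium and E7 in the test of the difference itself. The difference in log2 response was 0.76 (SE 0.13, adjusted p 0.038). In NODAL medium, RARS had 2365 and 2363 normalised reads in E7+NODAL+2DG, against 2231 and 2170.3 in E7+NODAL, while in E7 it had 2136 and 2189 in E7+2DG, against 3283 and 3550.2 in E7. The call was lost with the replicate number as a block (adjusted p 0.058) and without any 1 of 11 libraries (adjusted p up to 0.20). RARS also differed between E7+NODAL and E7 without 2DG, a comparison that shares those 4 libraries.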

How the results depend on the processing

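The averaged response to 2DG called 22 members, and 19 to 26 under its 27 alternatives, with 12 to 14 cytosolic genes higher and 0 to 2 mitochondrial genes higher; no alternative reversed a called member in any comparison. Of 2627 alternative values of the 95 called member results, 2270 kept the call and 357 lost it. Fitted on only the libraries of the contrast, the number of members called was 22 for 2DG in TGFb medium, 0 in Activin A medium and 19 in NODAL medium. It was 3 for TGFb in E7, 0 for Activin A in E7, 0 for Activin A with 2DG and 12 for NODAL with 2DG. For the changes of the 2DG response it was 1 for TGFb and 14 for NODAL. Over all genes this fit called 2991 higher and 3343 lower of 15568 for 2DG in TGFb medium. It called 3 and 0 of 15584 for 2DG in Activin A medium, and 2324 and 2498 of 15743 in NODAL medium. For TGFb in E7 it called 1336 and 1022 of 15556. For NODAL with 2DG it called 1425 and 2001 of 15625, and for the NODAL change 1917 and 2022 of 16269. Without the Activin A libraries the number of members called was 19 for 2DG in NODAL medium, 11 for TGFb in E7 and 12 for NODAL with 2DG. It was 4 and 16 for the TGFb and NODAL changes of the 2DG response. Of 16512 genes tested then, 1721 were called higher and 1684 lower for 2DG in NODAL medium, and 2311 and 2093 for TGFb in E7. The counts were 1198 and 1753 for NODAL with 2DG, 1073 and 1396 for the TGFb change, and 2323 and 2488 for the NODAL change. With the length trend removed, the number of members called was 9 for Activin A in E7, 3 for Activin A with 2DG and 3 for NODAL with 2DG. It was 1 and 5 for the Activin A and NODAL changes of the response. DESeq2 called 3 members for TGFb in E7, beside 204 genes higher and 91 lower of 16714. It called 7 members for the NODAL change, beside 960 and 783 genes. For Activin A with 2DG edgeR called 0 members, beside 723 and 537 genes. Scaling to the same total gave 10 members for NODAL in E7, beside 2675 genes higher and 916 lower of 16720. It gave 2 members for the NODAL change, beside 117 and 276 genes. A mean of at least 50 gave 4 members for the NODAL change. Counts over all genes are not given here for the length trend or for the mean of at least 50. Leaving out 1 library gave 19 to 24 members for the averaged response, 14 to 24 for 2DG in E7, 5 to 16 in TGFb medium, 2 to 20 in Activin A medium and 3 to 17 in NODAL medium. For ligands in E7 it gave 0 to 4 for TGFb, 1 to 9 for Activin A and 5 to 21 for NODAL; with 2DG it gave 0 to 9 for Activin A and 0 to 5 for NODAL. For the changes of the response it gave 0 to 1 for TGFb, 0 to 2 for Activin A and 0 to 12 for NODAL. The cause of these shifts was not tested. With the replicate number as a block, 22 members were called for the averaged response, 2 for Activin A in E7 and 0 for the NODAL change of the response. Replicate differences correlated above 0.1 in 3 of 28 pairs of groups, so the numbers were not taken as pairing the samples. The average over media has no fit on its own libraries alone, and Activin A comparisons have none without theirs. For low genes such as SARS2, with 11.2 to 48.1 normalised reads, counting error limits what can be detected.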
